A study of Mus musculus with 12 samples.

Results

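Many genes are transcribed from more than 1 promoter, and the start-site groups of such genes are described here in cultured mouse osteoblasts. A start-site group is the set of transcripts of a gene that share a transcription start in the assembly used by the authors, and its share is the percentage of the gene's assigned fragments that fell to that group. The groups were chosen by abundance alone: the gene had to have at least 2 start-site groups, and each group kept had a mean of at least 50 assigned fragments over the 11 distinct libraries. This gave 4074 start-site groups in 1889 genes, out of 30326 groups in 25511 genes (13.4% of the groups and 7.40% of the genes). Because the threshold used the mean over all libraries, the abundance of a group is no finding, whereas its share in each condition was not used in the choice.

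The cells were primary calvarial osteoblasts from neonatal C57Bl/6J mice, either wild type (WT) or F2rl1 -/- (KO). F2rl1 encodes protease-activated receptor 2, a cell surface receptor opened by cleavage of its own amino terminus, and the stated purpose was to learn its part in the response of bone-forming cells to factors from prostate cancer cells. After collagenase digestion and 48 h of preculture, cells of both genotypes spent 4 days in a prostate epithelial medium with 20% serum, either unconditioned or conditioned for 48 h by MDA-PCa-2b, an established human prostate cancer line. There were 4 groups of 3 samples: WT and KO in unconditioned medium, and WT and KO in conditioned medium. All 4 groups shared strain, serum level and culture time. The labels do not say which part of F2rl1 was deleted, whether animals were pooled, or whether the samples came from separate animals, and every p-value below therefore refers to variation among these cultures, part of which may be technical. A sample titled as unconditioned WT carried the KO genotype label and was placed by its title.

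The promoter sets where transcription begins, and genes with several promoters can make messages that differ in their first exon, in the start of their protein or only in their leader. Alternative promoters often sit in different sequence contexts, such as a CpG island for broad expression and a CpG-poor promoter for a tissue. In bone and muscle, well-known cases include Runx2, whose distal promoter serves osteoblasts, Tpm1, whose promoters give long and short tropomyosins, and Gnas and Igf2, imprinted genes with several promoters each.

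For some genes whose starts could be placed on the genome, the sequence before the start is shown, although in other genes different groups were placed at the same base. Nfe2l1 is shown since the group of it that passed the usage test had the most fragments of those that did, Igf2 since it led the list of known alternative promoters, and Acaca, chosen after its values were seen, since its leading start differed between conditions. Each run gives the 150 bases before the start, 5′ to 3′ on the gene's strand, from the RefSeq promoter table of build GRCm38.p6. Capitals mark the TATA core TATAAA, the GC box GGGCGG and the CCAAT box CCAAT, searched on both strands, so that ATTGG is a CCAAT box on the other strand.
Nfe2l1 TSS4902, GRCm38.p6 chr11:96824128-96824277, minus strand: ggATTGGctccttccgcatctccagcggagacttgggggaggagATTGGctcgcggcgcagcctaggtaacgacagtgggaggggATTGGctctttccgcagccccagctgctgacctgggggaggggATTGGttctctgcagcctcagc
Nfe2l1 TSS4903, GRCm38.p6 chr11:96829503-96829652, minus strand: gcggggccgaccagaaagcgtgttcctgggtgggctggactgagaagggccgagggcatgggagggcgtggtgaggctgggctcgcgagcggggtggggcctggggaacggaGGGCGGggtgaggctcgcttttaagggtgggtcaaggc
Nfe2l1 TSS4904, GRCm38.p6 chr11:96829969-96830118, minus strand: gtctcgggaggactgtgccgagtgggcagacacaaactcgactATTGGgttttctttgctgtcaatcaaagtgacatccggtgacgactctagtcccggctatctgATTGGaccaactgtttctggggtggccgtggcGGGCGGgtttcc
Igf2 TSS25621, GRCm38.p6 chr7:142657497-142657646, minus strand: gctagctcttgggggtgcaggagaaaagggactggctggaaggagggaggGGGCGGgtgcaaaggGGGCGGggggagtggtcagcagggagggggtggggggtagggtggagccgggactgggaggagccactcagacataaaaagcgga
Acaca TSS3769, GRCm38.p6 chr11:84195288-84195437, plus strand: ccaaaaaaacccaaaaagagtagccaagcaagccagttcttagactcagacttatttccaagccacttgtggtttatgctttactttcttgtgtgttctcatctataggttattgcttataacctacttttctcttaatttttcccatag
None of these windows overlaps an annotated exon. The window of Nfe2l1 TSS4902 holds 4 CCAAT boxes, that of TSS4903 a GC box and that of TSS4904 a GC box and 2 CCAAT boxes, all 6 CCAAT boxes on the opposite strand. The Igf2 window holds 2 GC boxes and the Acaca window none of the 3 motifs. The Acaca window ends in AG, as did 5.20% of the chosen groups matched to that table, and GC content around its start was 39.7%. Whether Acaca TSS3769 is a promoter or the edge of an internal exon was not tested. The fourth Nfe2l1 group, TSS4901, starts 114 bases downstream of TSS4902, and its window is not printed because it overlaps an annotated exon.

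Placing starts was possible for 2370 of the 4074 groups (58.2%), by matching their transcripts to GENCODE M21 through RefSeq identifiers. Where both starts of a gene with exactly 2 chosen groups were placed, they fell on the same base in 56 genes, among them Kif20a, and on different bases in 462, at a median distance of 2616 bases (quartiles 477 and 23448). The starts lay under 500 bases apart in 124 of these genes and over 10000 bases apart in 163. The upstream start held the larger share in 255 of the 462 (55.2%). A window from 250 bases before to 50 after the start was matched for 808 groups. Its median GC content was 62.0%, against 52.7% over all 32851 windows of the table, and its CpG observed over expected ratio 0.738 against 0.384. GC boxes were found in 60.5% of the matched groups against 35.7% of all windows, TATAAA in 7.43% against 13.6% and CCAAT in 36.9% against 37.4%. The 32851 windows were not limited to genes expressed here, whereas the chosen groups had passed a threshold on fragments. Expressed genes with a single start were not compared, so these differences cannot be ascribed to having several promoters. The 395 matched groups with the largest share of their gene had a CpG ratio of 0.791 and a GC box in 68.9%, while the other 413 had 0.665 and 52.5%. Within the 125 genes with at least 2 matched groups including the leading one, the leading group had the highest CpG ratio in 60 (48.0%), so the contrast between leading and other groups was not seen within these genes.

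The chosen groups held 22.3% to 24.0% of each library's fragments, with library totals of 15023993 to 16956754. Their median level was 383 fragments, 533 lay under 100 and 889 at 1000 or more, up to 87690 for a group of Spp1, which encodes the bone matrix protein osteopontin. Of the 1889 genes, 1649 had 2 chosen groups, 208 had 3, 28 had 4, 2 had 5, Plec had 7, and the protocadherin alpha and gamma cluster, assembled as a single gene, had 23. The leading group held a median of 70.1% of its gene, over 90% in 181 genes and under 60% in 520. The same group led in the mean of all 4 conditions in 1492 genes (79.0%). The nearest group above the threshold was TSS983 of Orc2, with a mean of 50.0 fragments and group mean shares of 1.15% to 9.89%, and the nearest below was TSS28005 of Zfp651, with 49.9 fragments and shares of 4.67% to 9.54%. F2rl1 itself had a single start-site group and is not among those chosen. Its fragments numbered 20 to 25 in unconditioned WT columns, 14 to 23 in conditioned WT, 33 to 46 in unconditioned KO and 12 to 31 in conditioned KO. In unconditioned medium every KO column lay above every WT column, which is not the direction of the KO label, and in conditioned medium the genotypes overlapped. Since the deleted part of the gene is not given, this count does not check the labels.

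The cultures were checked against markers of other cells, since a change in cell makeup and a change per cell cannot be told apart in bulk RNA. The 10 osteoblast markers summed to 34121 to 52326 CPM (counts scaled to library size) in unconditioned and 26757 to 39889 in conditioned medium, with Bglap, Dmp1 and Ibsp under 1. Of the other lists, 4 osteoclast markers summed to 93.3 to 143 and 228 to 429, with Calcr and Ocstamp under 1, and 5 macrophage markers to 38.8 to 66.8 and 47.7 to 120, with Ptprc under 1. For 4 smooth muscle markers the ranges were 1347 to 2005 and 236 to 1368, with the lowest sums, 325 and 236, in conditioned KO libraries 1 and 2 beside 1368 in library 0. The 4 endothelial markers summed to 3.48 to 7.45 and 7.61 to 16.6, with Pecam1 under 1. The highest sums of 6 skeletal muscle, 4 keratinocyte and 4 adipocyte markers were 95.3, 23.9 and 35.8. Osteoclast and endothelial sums did not overlap between the media, macrophage and smooth muscle sums did, and their part in the usage results was not tested.

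How well a fragment could be assigned to a start was visible in the deposited table itself. Columns 0 and 1 of unconditioned WT hold 1 library, with equal fragments in 24180 of 25511 genes, and they were counted as 1 sample by their mean. Although the gene totals agreed, the share of a chosen group differed between these columns by a median of 2.55 points, by over 10 points in 688 groups (16.9%), and by 97.5 points in 6430548M08Rik. The leading group differed between them in 148 genes. The columns numbered 0 also stood apart in the other conditions: of those 688 groups, 634 deviated from columns 1 and 2 in the same direction in conditioned WT, 623 in unconditioned KO and 590 in conditioned KO. Evl, an actin filament regulator, shows it most plainly. Its TSS5762 held 96.0%, 47.0% and 50.5% in unconditioned WT columns 0, 1 and 2, then 88.6%, 35.6% and 42.3% in conditioned WT, 85%, 28.4% and 27.1% in unconditioned KO, and 80.9%, 37.3% and 30.3% in conditioned KO. In each condition column 0 was the high one. Homer2, a postsynaptic scaffold, had shares of TSS25060 of 1.34%, 94.7% and 94.3% in the same unconditioned WT columns, so the 2 columns of 1 library disagreed on which promoter led. Both genes were chosen after their values were seen. What made column 0 differ was not tested.

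**Figure D1:**
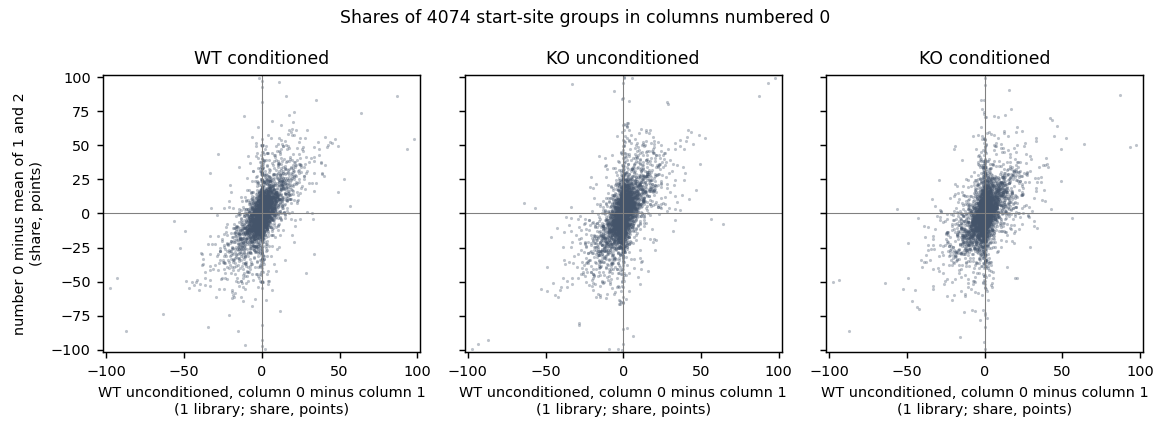
Share in column 0 minus the mean of columns 1 and 2 (y axis, percentage points) in 3 conditions, against the difference between the 2 columns of the single unconditioned WT library (x axis, percentage points). Points are chosen start-site groups, and groups that differed by over 10 points between the 2 columns mostly deviated in the same direction elsewhere (634, 623 and 590 of 688).

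Usage was tested as the log2 change of a group minus that of its gene with edgeR's quasi-likelihood test, adjusted by Benjamini-Hochberg over the 6228 groups tested in each comparison, 4069 of them among those chosen and 5 failing the filter on low fragments. A group with an adjusted p under 0.05 is said to have changed. Over 6 comparisons, 7 chosen groups in 7 genes changed: Atg7, Fkbp5, Kif20a, Nfe2l1, Bscl2, Huwe1 and Mga. Each of the 7 had under 3 fragments in every library of at least 1 condition, so fitted log2 values depend on the prior count and shares are given in their place. The loci of Atg7, Kif20a and Bscl2 also hold protein-coding genes on the other strand (Vgll4 for Atg7, Brd8 and Cdc23 for Kif20a, Gng3 for Bscl2), and since the libraries do not mark strand, reads of the overlapping genes cannot be told apart.

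In conditioned medium, averaged over both genotypes, the minor start-site group of 3 genes fell to or near 0. Atg7 encodes the E1-like enzyme that activates the ubiquitin-like proteins of autophagy. Its TSS22034 held 13.7%, 15.3% and 17.3% of the gene in unconditioned WT columns 0 to 2 and 5.53%, 14.3% and 15% in unconditioned KO, and was listed at 0 in all 6 conditioned libraries (141, 157 and 158 fragments, then 65.4, 112 and 130, then 0). No conditioned library overlapped an unconditioned one. The adjusted p was 1.03e-05 for the average, 0.000476 in WT and 0.000684 in KO, and Atg7 was the only chosen gene called lower in each genotype by itself. These 3 calls held when any single library was left out. The other start, TSS22033, meanwhile held 756 to 887 fragments in unconditioned and 1275 to 1754 in conditioned WT, and Atg7 as a whole rose by 0.53 on the log2 scale (SE 0.12, adjusted p = 0.0168 with edgeR).

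Fkbp5, a co-chaperone of the glucocorticoid receptor and a classical target of it, also had a minor start that fell. TSS11631 held 12.3%, 18.2% and 5.76% in unconditioned WT, 8.88%, 4.11% and 3.66% in unconditioned KO, and no fragments after rounding in any conditioned library (adjusted p = 0.0183, edgeR). Here the whole gene fell too, by 2.70 on the log2 scale (SE 0.26, adjusted p = 0.000508, edgeR), and its leading start had 1254 to 1793 fragments in unconditioned and 100 to 367 in conditioned columns. The call on TSS11631 was lost without conditioned WT library 1, unconditioned KO library 0, or conditioned KO library 1 or 2 (adjusted p 0.0517 to 0.0696, edgeR). Kif20a encodes a mitotic kinesin. Its TSS12273 and TSS12274 were placed at the same base, so the annotation used here does not separate them as starts. TSS12274 ranged over 4.99% to 26.0% in unconditioned columns and was listed at 0 in 5 of 6 conditioned libraries, with 1.75% in the sixth (adjusted p = 0.0273, and 0.0972 with the library number as a block, edgeR). Kif20a as a whole fell by 1.91 (SE 0.25, adjusted p = 0.00151, edgeR). The call on its start was lost when any of 8 libraries was left out (adjusted p 0.0578 to 0.0709, edgeR), and was still made without unconditioned WT library 0, conditioned WT library 2 or conditioned KO library 0. The 3 changed groups were among 115 chosen groups with an unadjusted p under 0.05. Over all groups tested, 0.112% passed, against 0.0737% of the chosen groups, so the chosen groups did not pass more often than the rest.

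Close to the threshold lay Shisa5, which encodes a membrane protein of the endoplasmic reticulum. Its TSS27912, downstream of the main start, held 3.95%, 4.80% and 4.67% in unconditioned WT, 8.69%, 15.5% and 9.14% in conditioned WT, 9.29%, 10.1% and 7.99% in unconditioned KO and 11.1%, 17.3% and 25.2% in conditioned KO. Within each genotype every conditioned library lay above every unconditioned one, and the usage log2 change was 1.13 (SE 0.22, adjusted p = 0.0514, edgeR). Dclk1, a microtubule-associated kinase, had 36.3% to 38.3% from TSS16593 in unconditioned WT, 12.8% to 26.9% in conditioned WT, 48.8% to 56.3% in unconditioned KO and 11.7% to 35.9% in conditioned KO. No conditioned library reached an unconditioned one, with a log2 change of -1.16 (SE 0.27, adjusted p = 0.178, edgeR). In 72 chosen groups of 41 genes (1.77% of those tested) the shares of conditioned and unconditioned libraries did not overlap, against 1.4% of all groups tested. DESeq2, applied to the group against the rest of its gene, passed 190 of the chosen groups in 108 genes for this average, while 4.82% of all groups tested passed. Of the 190, 95 had a higher and 95 a lower share. In a gene with 2 tested groups the 2 DESeq2 tests mirror each other, so this even split is largely set by the measure. Without the columns numbered 0, edgeR passed 24 of the chosen groups, while 0.613% of all groups tested passed, and among the 24 were Shisa5, Dclk1, Wwp2, Pdgfra and Tsc22d1.

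In WT cells conditioned medium changed Atg7 and Nfe2l1, 2 chosen groups where 0.0963% of all groups tested passed. Nfe2l1 encodes NRF1, a transcription factor of the endoplasmic reticulum membrane that raises proteasome genes. TSS4901 was listed at 0 in unconditioned WT and held 21%, 20.7% and 11% in conditioned WT, that is 1268, 1911 and 571 fragments (adjusted p = 0.0289, and 0.128 with the block, edgeR). In KO cells the order was the reverse: 0%, 5.60% and 15.3% in unconditioned and 0 in all conditioned libraries (adjusted p = 0.0044, and 0.132 with the block). Column 0 of unconditioned KO overlapped the conditioned libraries. The neighbouring TSS4902 held 25.7% ± 6.17 (SD, n = 2), 15.5% ± 2.57, 26.0% ± 4.11 and 34.1% ± 4.28 (n = 3 each) in the order WT unconditioned, WT conditioned, KO unconditioned and KO conditioned. It was low in conditioned WT, where TSS4901 was present. In unconditioned KO it held 30.7% and 24.4% in libraries 1 and 2, where TSS4901 was also present, against 22.9% in library 0. The upstream TSS4903 held 31.7% ± 2.28, 34.5% ± 10.4, 33.7% ± 1.85 and 38.1% ± 8.05 in that order. The WT call was lost when any library was left out of either WT condition, or library 1 or 2 of unconditioned KO (adjusted p 0.0646 to 0.304), and the KO call without conditioned KO library 2 (0.0544, edgeR).

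In KO cells conditioned medium changed Atg7, Nfe2l1 and Bscl2, again with 0.0963% of all groups passing. Bscl2 encodes seipin, which shapes lipid droplets at the endoplasmic reticulum. Its TSS13078 held 22.1%, 29.5% and 54.2% in unconditioned WT, 5.11%, 0.00463% and 15.6% in conditioned WT, under 0.01% in all unconditioned KO libraries and 7.79%, 21% and 23.3% in conditioned KO (KO medium adjusted p = 0.00683, 0.077 with the block and 0.0914 without the columns numbered 0, edgeR). Bscl2 as a whole rose in conditioned medium by 0.54 (SE 0.08, adjusted p = 0.00208, edgeR). Next in order of p came Wwp2, a ubiquitin ligase. Its TSS26343 held 27.1%, 65.2% and 60.9% in unconditioned KO and 19.9%, 8.14% and 8.05% in conditioned KO, against 37.2% to 37.9% and 16.6% to 29.7% in WT (log2 change -2.13, SE 0.46, adjusted p = 0.138, edgeR). DESeq2 passed 167 chosen groups in 98 genes here and 63 in 37 genes in WT, with 4.17% and 1.97% of all groups tested passing. Without conditioned KO library 2 the adjusted p of Bscl2 was 0.0544.

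**Figure D2:**
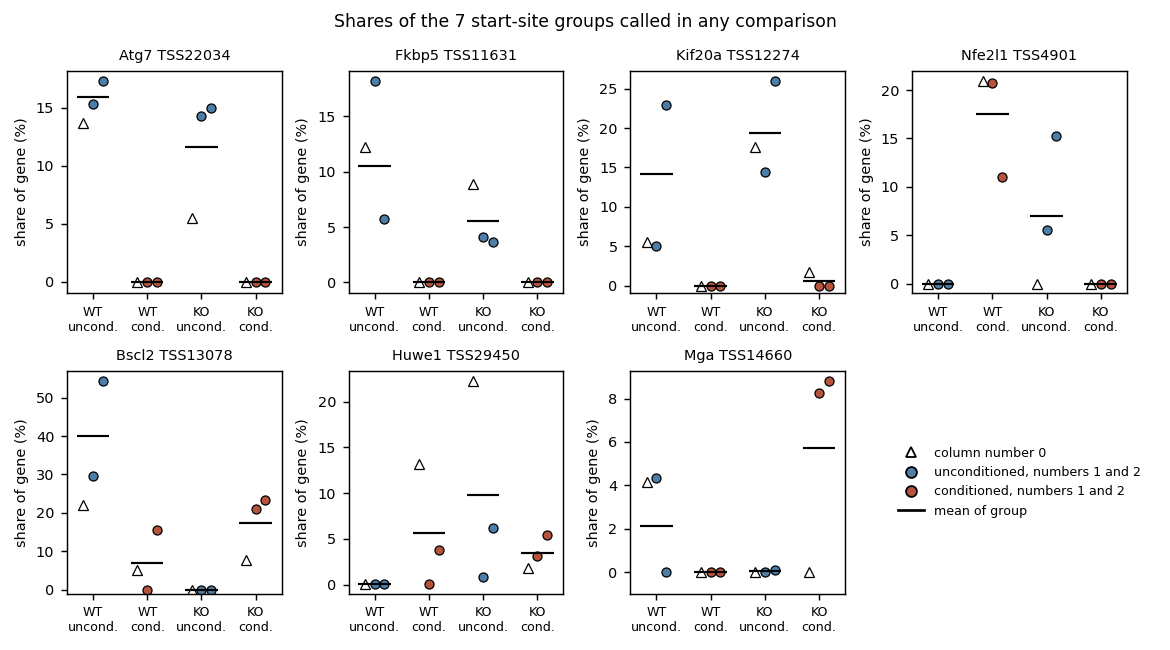
Share of the gene's fragments (percent) of the 7 start-site groups that changed in any comparison, in each column of the 4 conditions, with triangles for columns numbered 0 and lines for group means. Atg7, Fkbp5 and Kif20a lie at or near 0 in conditioned medium, Nfe2l1 is present in conditioned WT and Bscl2 is near 0 in unconditioned KO.

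Between genotypes in unconditioned medium, Bscl2 TSS13078 was near 0 in KO and 22.1% to 54.2% in WT (adjusted p = 0.0111, edgeR), and Huwe1 TSS29450 went the other way. Huwe1 encodes a very large ubiquitin ligase of the X chromosome. Its TSS29450, at X position 151803327, held under 0.04% in unconditioned WT and 22.2%, 0.838% and 6.17% in unconditioned KO (adjusted p = 0.0414, edgeR), with the highest value in column 0, and the adjusted p without the columns numbered 0 was 0.10. That call was also lost without any 1 of 7 libraries, which included both unconditioned WT libraries (0.325 and 0.21). The Bscl2 call held when any single library was left out, with an adjusted p of 0.0766 without all columns numbered 0. These 2 groups were the only chosen ones to pass, with 0.0803% of all groups passing. Prickle2, a planar polarity protein, did not pass (adjusted p = 0.329, edgeR), but its TSS22690 and TSS22691 did not overlap between genotypes, while TSS22689 did. TSS22691 held at most 0.97% in unconditioned WT and 52.6%, 70.3% and 58.4% in unconditioned KO, and 29.8% to 63.0% in conditioned WT. In 4931406P16Rik, an uncharacterised gene, TSS24771 held 35.7% to 38.3% in unconditioned WT and under 0.05% in unconditioned KO (adjusted p = 0.328, edgeR). Within conditioned medium it varied from library to library, with 39.0%, 0.0544% and 0.0792% in WT and 0.151%, 49.0% and 30.8% in KO. Lif, a cytokine of the interleukin 6 family and chosen after its values were seen, had a like pattern: TSS3156 held 15.8% ± 0.325 (SD, n = 2) in unconditioned WT against 67.3% ± 3.51 in unconditioned KO, 60.7% ± 9.20 in conditioned WT and 52.7% ± 7.71 in conditioned KO (n = 3 each). Unconditioned WT columns 0, 1 and 2 held 14.2%, 17.8% and 15.5%, and the SD of 0.325 was taken after columns 0 and 1 were averaged as 1 library. The adjusted p of Lif for KO against WT was 0.525 with edgeR and 4.92e-12 with DESeq2. Both Lif and Prickle2 thus stood apart in the unconditioned WT libraries, the group with 2 distinct libraries.

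In conditioned medium, Nfe2l1 TSS4901 alone passed between genotypes, at 11% to 21% in WT and listed at 0 in KO (adjusted p = 0.00143, edgeR). The percentage of all groups passing was 0.0642%. This call held when any single library was left out. Rnmt, which methylates the cap of messenger RNA, came next: TSS12507 held 17%, 42.1% and 60.7% in WT and under 0.02% in KO (adjusted p = 0.0567, edgeR). In 2410002F23Rik TSS23566 held under 0.5% in WT and 16.8% to 23.5% in KO (adjusted p = 0.159, edgeR). Runx1t1, a transcriptional corepressor, had at most 0.125% from TSS17937 in conditioned WT and 18.6% to 53.2% in conditioned KO (adjusted p = 0.297, edgeR). Acaca, the rate-limiting enzyme of fatty acid synthesis, had TSS3769 at 20.1%, 0.58% and 21.6% in conditioned WT and 68.4%, 70.2% and 60.3% in conditioned KO, and 14.5% to 40.5% in the unconditioned columns of both genotypes. Its adjusted p was 0.540 with edgeR and 0.0158 with DESeq2. The authors' deposited promoter table gives Acaca a q of 0.00745 in this comparison.

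The medium effect itself differed between genotypes for 3 chosen groups, with 0.0642% of all groups passing the interaction test. Nfe2l1 TSS4901 was listed at 0 in unconditioned and present in conditioned WT, with the order turned round in KO (adjusted p = 0.000321, and 0.0145 with the block, edgeR). Bscl2 TSS13078 had means of 40.0% and 6.92% in WT, and of under 0.01% and 17.4% in KO (adjusted p = 0.00784, 0.0976 without conditioned WT library 0, and 0.102 without all columns numbered 0, edgeR). Mga, a MAX-binding transcription factor, had 4.15%, 4.36% and 0.0088% from TSS14660 in unconditioned WT, under 0.02% in conditioned WT, at most 0.104% in unconditioned KO and 0.0101%, 8.26% and 8.83% in conditioned KO (adjusted p = 0.0495, and 0.206 with the block). The Mga call was made in the absence of conditioned KO library 0 or unconditioned WT library 2, and lost without any 1 of the other 9 libraries (adjusted p 0.12 to 1, edgeR). Rora, a nuclear receptor, did not pass (adjusted p = 0.255, edgeR), with TSS27673 at 4.04%, 5.16% and 33.2% in unconditioned WT and 47.5%, 2.64% and 20.5% in conditioned KO, and at most 4.24% in the other 2 conditions. Over all chosen groups the median absolute difference in share was 3.59 points for the average medium effect and 4.34 to 5.33 points in the other 5 comparisons, each as a difference between group means. The median SD of a share between libraries of 1 condition was 6.49 points.

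**Figure D3:**
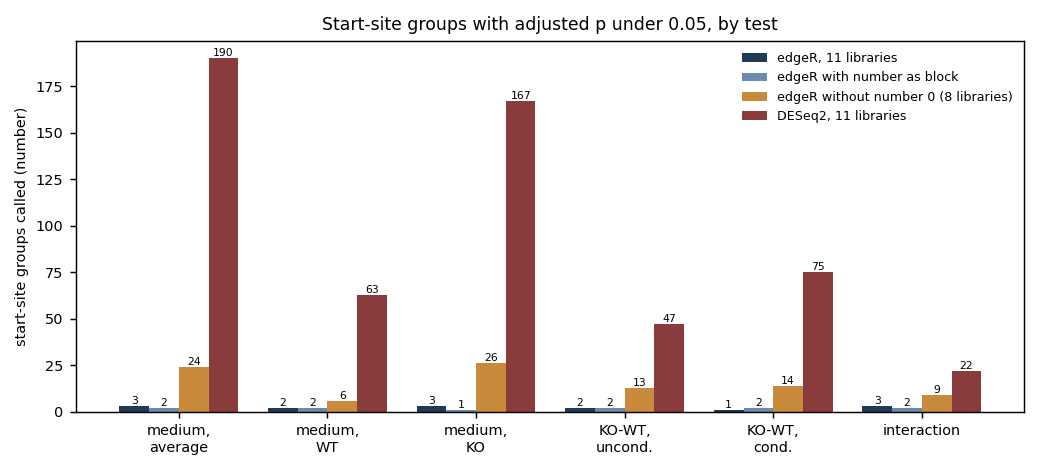
Number of chosen start-site groups that passed an adjusted p of 0.05 in each of 6 comparisons, under edgeR, edgeR with library number as a block, edgeR without the columns numbered 0, and DESeq2. Bars start at 0 and show 1 to 3 groups under edgeR against 22 to 190 under DESeq2. Under DESeq2 the 2 groups of a gene often pass together, and these counts lay in 14 to 108 genes.

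The count of groups that passed differed between tests. The percentages that follow are the share of all groups tested that passed in that comparison, as a background to the counts of chosen groups. With the library number as a block, edgeR passed 2 chosen groups for the average medium effect, 2 in WT and 1 in KO, beside backgrounds of 0.145%, 0.145% and 0.0321%. Between genotypes it passed 2 in unconditioned and 2 in conditioned medium (background 0.193% and 0.0963%), among them Bscl2, Huwe1 and Nfe2l1, and for the interaction it passed Nfe2l1 and Bscl2 (background 0.0642%). Without the columns numbered 0, an alternative chosen after seeing the data, edgeR passed 6 groups for the medium in WT and 26 in KO (background 0.166% and 0.762%), 13 and 14 between genotypes (background 0.414% and 0.381%) and 9 for the interaction (background 0.215%). Over the 6 comparisons these were 46 groups, of which 4 were among the 7 named above. DESeq2 passed 47 and 75 of the chosen groups between genotypes (background 1.61% and 2.18%) and 22 for the interaction (background 1.14%). These lay in 31, 41 and 14 genes. The libraries of the groups compared did not overlap in share for 724 chosen groups for the medium in WT and 494 in KO, against 18% and 11.7% of all groups tested, and for 723 and 403 between genotypes, against 18.4% and 10.1%. Among the chosen groups alone these percentages were 17.8%, 12.1%, 17.8% and 9.90%, close to that background. The medium comparison in WT and the genotype comparison in unconditioned medium include unconditioned WT, the group with the fewest distinct libraries. With fewer libraries, shares separate more readily by chance. The higher counts of 724 and 723 therefore cannot be read as more change in those comparisons than in the others.

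The 8 most abundant genes of the list of known alternative promoters gave no call with edgeR in any comparison. Igf2, a growth factor, drew 64.0% ± 0.50 (SD, n = 2) from TSS25621 in unconditioned WT, 66.0% ± 2.89 in conditioned WT, 65.7% ± 0.168 in unconditioned KO and 74.0% ± 8.66 in conditioned KO (n = 3 each). In the last condition libraries 1 and 2 held 79.0% each and library 0 held 64.0%. Cald1, which encodes the actin-binding caldesmon, drew 20.0% ± 1.95, 26.9% ± 5.80, 16.7% ± 6.03 and 26.9% ± 1.91 from TSS21624 in the same order, and its conditioned and unconditioned libraries overlapped. Cdkn1a, the cell cycle inhibitor p21, drew 11.2% ± 1.65, 11.9% ± 0.357, 15.7% ± 2.37 and 12.3% ± 0.733 from TSS10969. Gnas, which encodes the stimulatory G protein alpha subunit, split its fragments between TSS15103 and TSS15104, and the latter held 53.9% ± 10.9, 57.1% ± 12.4, 50.9% ± 10.5 and 50.0% ± 9.02, highest in column 0 of each condition. For Lmna, encoding nuclear lamins, TSS17396 held at most 0.0894% in every column 0 and 2.96% to 20.6% in every other column. Plec, the cytolinker with 7 chosen groups, drew 45.6% ± 12.1, 56.8% ± 9.24, 59.2% ± 4.79 and 65.6% ± 3.89 from TSS9362. For Tpm1 the downstream start TSS28472 held 10.5% ± 2.79, 12.1% ± 5.19, 13.7% ± 3.08 and 11.6% ± 0.614.

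Tsc22d1, a leucine zipper protein induced by TGF-beta and glucocorticoids, was the abundant gene whose libraries separated by medium. TSS7981 held 5.07%, 5.13% and 6.41% in unconditioned WT, 9.48%, 8.94% and 7.80% in conditioned WT, 6.28%, 3.84% and 3.27% in unconditioned KO and 6.66%, 8.54% and 8.65% in conditioned KO. All 6 conditioned libraries lay above all unconditioned ones. The log2 change was 0.72 (SE 0.24, adjusted p = 0.513 with edgeR, 0.00667 with DESeq2 and 0.0196 with edgeR without the columns numbered 0). Pdgfra, the receptor of platelet-derived growth factor that marks mesenchymal progenitors, was chosen after its values were seen. Its TSS20063 held 15.2% ± 1.87 (SD, n = 2) in unconditioned and 30.3% ± 8.69 in conditioned WT, and 15.4% ± 6.19 and 35.4% ± 10.8 in KO (n = 3 each), with an adjusted p of 0.00390 with DESeq2 and 0.471 with edgeR. The fragments of that group ranged over 953 to 2114, whereas those of the main start TSS20062 ranged over 6750 to 12526 in unconditioned and 1103 to 4924 in conditioned columns.

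**Figure D4:**
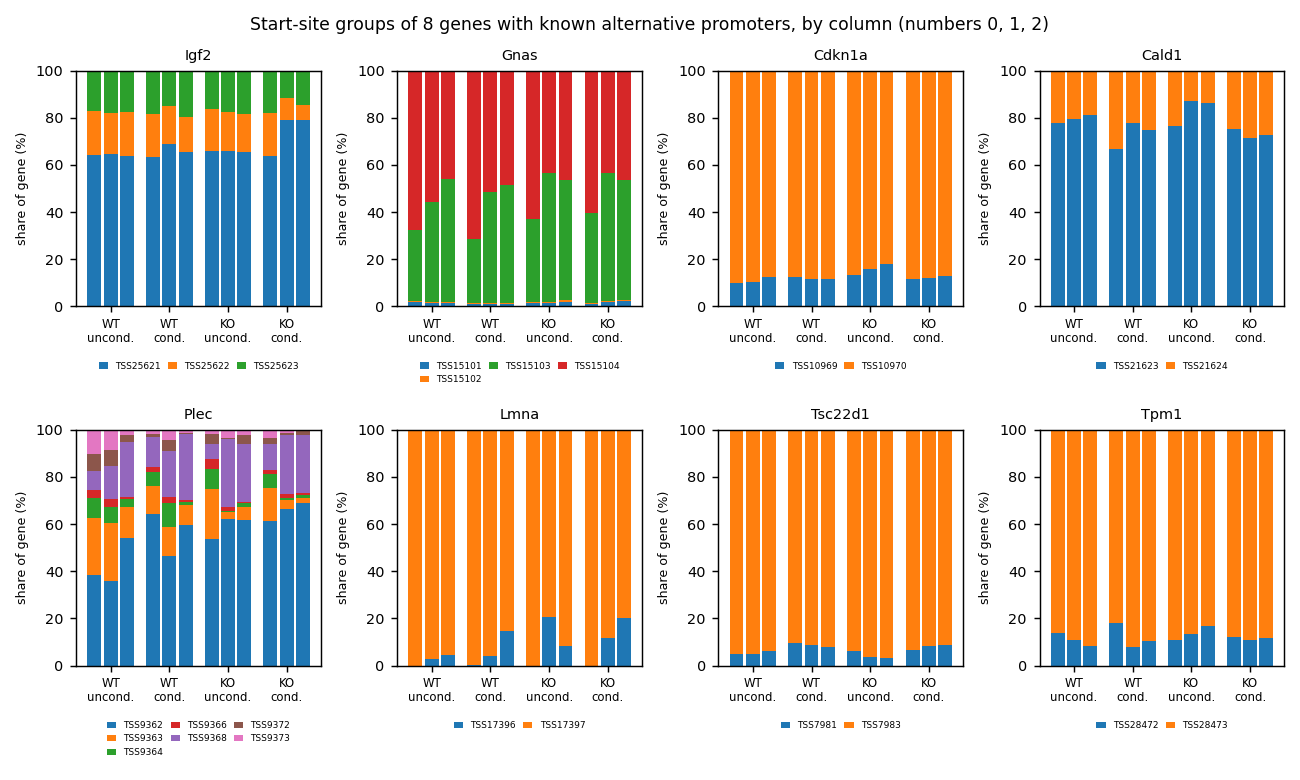
Stacked bars of the share of the gene's fragments (percent, from 0) held by each chosen start-site group of 8 genes with known alternative promoters, 1 bar per column in the order 0, 1, 2 of each condition (unconditioned WT columns 0 and 1 are 1 library). Igf2 TSS25621 spans 63.3% to 79.0%, and Tsc22d1 TSS7981 is higher in every conditioned than in every unconditioned column.

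The clustered protocadherins are the extreme case of promoter choice: each variable exon has its own promoter and is spliced to shared constant exons, so that cells carry different combinations of these adhesion proteins. The locus was assembled as 36 groups, of which 23 were chosen, 19 of them Pcdhga and Pcdhgb exons. Pcdhgc3 alone held 44.6% ± 0.0937 (SD, n = 2) in unconditioned WT, 53.8% ± 2.26 in conditioned WT, 42.9% ± 1.84 in unconditioned KO and 42.9% ± 8.99 in conditioned KO (n = 3 each). The sum of the 19 Pcdhga and Pcdhgb groups held 47.9% ± 0.116, 39.9% ± 2.33, 49.3% ± 2.56 and 52.2% ± 11.1. Since these are shares of a single total, opposite moves of Pcdhgc3 and this sum are partly set by the measure. In KO the mean of Pcdhgc3 was 42.9% in both media while the mean of the sum was higher in conditioned medium. In conditioned KO the libraries differed widely, with Pcdhgc3 at 52.4%, 41.6% and 34.6%. Pcdhgc5 held 6.01% ± 0.178 in unconditioned WT and 5.95%, 2.19% and 1.07% in conditioned KO. No group of the cluster passed with edgeR, and the smallest adjusted p was 0.522, for Pcdhga8.

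**Figure D5:**
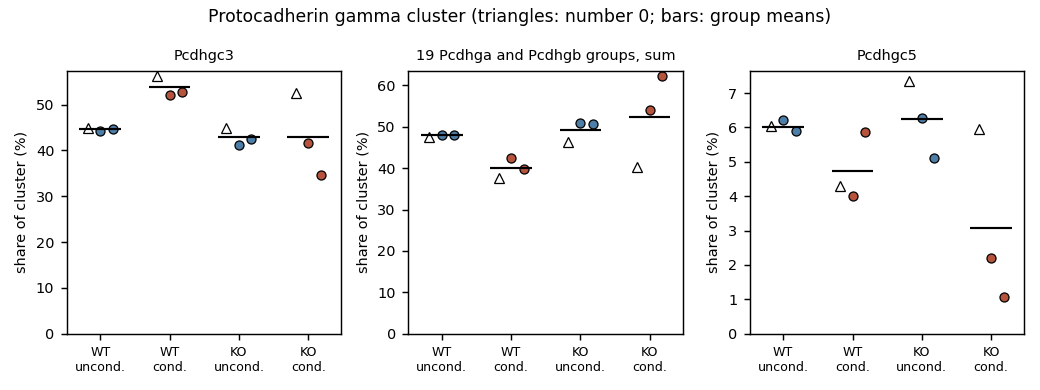
Share of the fragments of the protocadherin cluster (percent) held by Pcdhgc3, Pcdhgc5 and the sum of 19 Pcdhga and Pcdhgb groups, by condition and column, with triangles for columns numbered 0 and lines for group means. Pcdhgc3 is highest in conditioned WT (52.1% to 56.3%) and spread widely in conditioned KO (34.6% to 52.4%).

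The gene lists were read by counts against all groups tested. Among 139 tested groups of the 57 genes with known alternative promoters, Fkbp5 was the only 1 to pass for the average medium effect and Nfe2l1 the only 1 in WT, KO, conditioned genotype and interaction comparisons. For the average medium effect, where 0.112% of all groups tested passed, Fkbp5 was also the 1 call among 15 groups of glucocorticoid-induced and clock genes, and Kif20a the 1 call among 16 cell cycle groups. Neither list had a call in the other 5 comparisons. None passed in any comparison among 86 groups of the actin cytoskeleton, 52 of mesenchymal transcription factors, 13 of lysosome and autophagy, 14 of the interferon response, 35 of bone matrix, 22 of lipid metabolism and 66 of signalling genes. Atg7 and Bscl2, which did pass, are not on the autophagy and lipid lists. The median absolute share difference for the average medium effect was 1.03 points among bone matrix groups, 7.92 among glucocorticoid and clock groups and 8.53 among cell cycle groups, beside 3.56 over all groups tested. The other lists lay at 2.93 to 5.15. The glucocorticoid and cell cycle groups came from only 7 and 8 genes, and the shares within a gene move against each other. Runx2, the master transcription factor of bone, was among those that did not pass. Its 4 groups were placed at 2 bases, TSS11848 and TSS11849 together at the upstream base, and the sum of these 2 groups held 62.7% ± 4.36 (SD, n = 2), 52.9% ± 4.23, 65.5% ± 10.7 and 60.2% ± 4.92 (n = 3 each) in the order WT unconditioned, WT conditioned, KO unconditioned and KO conditioned.

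A switch of the leading start that every library of each condition shared was rare. In 1094 genes the leading group was uniform within each condition, and in 8 of these it differed between conditions: Thra, Arap1, Ak4, Acaca, Zfp518a, Trex1, Wibg and Cdca2. In Thra, the thyroid hormone receptor alpha gene, TSS3920 held 50.0% to 53.8% in WT libraries and 37.8% to 48.9% in KO libraries, so the switch followed genotype with shares close to an even split. In Arap1, a regulator of small GTPases, TSS23865 held 51.8% to 67.3% in unconditioned and 28.9% to 48.6% in conditioned columns. Wibg, a factor of exon junction complex recycling, also followed the medium, with TSS2383 at 53.1% to 82.8% and 12.6% to 40.8%. Ak4, a mitochondrial adenylate kinase, switched in conditioned KO alone, with TSS18236 at 20.7% to 35.7% there and 62.6% to 94.6% elsewhere. None of the 8 passed with edgeR. These 8 genes were found by their shares, and the switch of the leading start itself was not tested. The authors' deposited promoter table marks Ak4 and Acaca for the medium in KO (q 0.00745 and 0.0190) and for genotype in conditioned medium. It marks Wibg and Zfp518a for the medium in WT (q 0.0133 and 0.00745), and Zfp518a for genotype in unconditioned medium. Thra, Arap1, Trex1 and Cdca2 are not marked there.

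The authors' deposited promoter table tests whole genes for a change in the mix of starts. It lists 21 of the chosen genes as significant for the medium in WT, 7 for the medium in KO, 12 for genotype in unconditioned and 13 in conditioned medium, with 1.48%, 0.678%, 0.957% and 0.678% of all genes tested significant. Of these, edgeR also passed 2, 2, 1 and 1, and DESeq2 14, 5, 8 and 12. Those 14 are 66.7% of the authors' genes and 37.8% of the genes that DESeq2 passed in WT. Atg7 was the single chosen gene that the authors' deposited table marked for the medium in both genotypes.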

How the data were processed

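RNA of 12 cultures was made into unstranded TruSeq libraries and sequenced on a HiSeq2000, per the labels' protocols. Per the submitters' processing notes the authors used CASAVA 1.8.2, TopHat2 2.0.9 and Cufflinks and Cuffdiff 2.1.1 with GRCm38 (mm10). The deposited table gives, per the file headers, estimated counts of fragments for each start-site group and library, and FPKM, which served to check the shares: the same group led in 1796 of 1889 genes by FPKM, with a median gap of 1.27 points. The authors' deposited promoter table gives the square root of the Jensen-Shannon divergence, a score, with its p-value and q-value for each gene. Shares are percentages of the gene's raw fragments, with no correction for length.

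Groups of samples came from the titles. The table's library numbers 0 to 2 could not be tied to the title numbers 1 to 3. Rounded fragments of 18581 groups were fitted in edgeR 4.0.16 (R 4.3.3, TMM, filterByExpr, robust quasi-likelihood, 7 residual degrees of freedom, biological coefficient of variation 0.445), and diffSpliceDGE compared each group with its gene. On simulated data for the average medium effect, the script made no call without a planted change. Those data had independent libraries and a smaller spread than the real fit, so they do not measure false calls here. Tables were built with Python 3.11.15, pandas 2.3.3 and numpy 2.4.6. Alternatives used DESeq2 1.42.0, limma 3.58.1, other filters and scalings, a block on library number and leaving out libraries. For libraries of the same number, all 15 correlations of their deviations in share from the group mean exceeded 0.1 (0.103 to 0.419). They were 0.212 to 0.419 for number 0, 0.103 to 0.196 for number 1 and 0.137 to 0.246 for number 2. Libraries of different numbers were not compared, so these correlations cannot tell a pairing from the deviation of columns numbered 0. The labels give no pairing, and the number served as a block only as an alternative.

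Genes were named by rule: groups called with libraries apart, the 5 smallest p where fewer than 5 genes were called, called and the 8 most abundant genes of the list of known alternative promoters, the groups nearest the threshold, and F2rl1. The groups, lists and genes were chosen with earlier results of these data known. Intervals for single shares were not computed, since assigned fragments are estimates.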

Additional observations from a re-analysis of the deposited data

Results flagged for a closer look

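For 3 start-site groups the effect of conditioned medium on usage differed between genotypes by the interaction test of edgeR. The fitted difference (KO minus WT, log2) was -25.55 for Nfe2l1 TSS4901, 12.82 for Bscl2 TSS13078 and 16.08 for Mga TSS14660. Each of these groups was at or near 0 in every library of at least 1 condition, so the fitted sizes depend on the prior count and are not folds. In Nfe2l1 the group held 11% to 21% in conditioned WT and 5.60% and 15.3% in libraries 1 and 2 of unconditioned KO, and was listed at 0 in the other 6 distinct libraries, among them unconditioned KO library 0. In Bscl2 it was present in all conditions but unconditioned KO, although a conditioned WT library had only 0.00463%. In Mga the signal rested on unconditioned WT columns 0 and 1, which are 1 library, and on conditioned KO libraries 1 and 2.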

How the results depend on the processing

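The counts of chosen groups called are given in the order average medium, medium in WT, medium in KO, genotype in unconditioned medium, genotype in conditioned medium and interaction, and were 3, 2, 3, 2, 1 and 3. DESeq2 gave 190, 63, 167, 47, 75 and 22, in 108, 37, 98, 31, 41 and 14 genes. Without all columns numbered 0, chosen after seeing the data, edgeR gave 24, 6, 26, 13, 14 and 9, and without both KO libraries numbered 0 it gave 20, 5, 23, 13, 22 and 8. With all 12 columns, that is with 1 library counted as 2, the counts were 6, 4, 3, 5, 2 and 4. Limma on the log2 ratio to the other groups, also chosen after seeing the data, gave 6, 5, 4, 3, 0 and 0. A minimum mean of 10 fragments gave 4, 2, 3, 1, 2 and 3, and a fit of the chosen groups alone 2, 1, 3, 2, 1 and 4. Leaving out 1 library gave 1 to 16, 1 to 13, 1 to 19, 1 to 13, 1 to 9 and 1 to 8. The highest counts came without conditioned KO library 0 (16 for the average, 19 in KO and 9 for genotype in conditioned medium) or without either unconditioned WT library (11 or 13 for medium in WT and for genotype in unconditioned medium), and for the interaction without unconditioned WT library 2 (8). Without an unconditioned WT library the lone WT library is assumed to vary like the other groups. With the replicate block, a pairing that the labels do not give, the counts were 2, 2, 1, 2, 2 and 2. Wsb1 was called there for genotype in conditioned medium and Huwe1 for medium in WT. The block with all 12 columns, chosen after seeing the data, gave 8, 12, 2, 11, 1 and 3. Besides the calls whose blocked p the report prints, the block changed no other call of a named group except Huwe1. Of 660 values of named groups under alternatives, 532 stayed on their side of the threshold in the same direction, 67 fell below it, 61 passed it and 0 reversed. Only values of the 14 calls could fall below it, so the 67 are not to be read as a share of 660. Of the genes significant in the authors' deposited promoter table, 26, 9, 15 and 13 had a q under 0.01. In 59 chosen groups every library of at least 1 condition had under 3 fragments, and whether depth played a part was not tested.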

Other observations

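Of the chosen groups, 206 were listed at 0 in some library and 11 in every library of a condition. Beyond Atg7, Kif20a and Nfe2l1 these were groups of Ube2l3, Tulp4, Scd2/Scd3, Nek6, Nt5c3, Cdh11, Sbno2 and Fam134b. The libraries of conditioned KO numbered 1 and 2 stood apart from library 0 in several genes chosen after their values were seen. In Rarg, a retinoic acid receptor, TSS9710 held 67.3%, 49.5% and 42.3% in conditioned KO libraries 0, 1 and 2, beside 57.7% to 68.9% in all other columns. In Igf1, a growth factor with several leader exons, TSS2176 held 5.38%, 10.5% and 13.8% there and 2.94% to 4.86% elsewhere. In Mkl1, a coactivator of serum response factor, TSS9469 held 9.92%, 0% and 0.00571% there and 11.3% to 27.2% elsewhere.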
